A study of Homo sapiens with 38 samples.

Results

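The AP-1 genes FOS, FOSB, FOSL1, FOSL2, JUN, JUNB, JUND, BATF, BATF3 and ATF3 were examined in Jurkat cells, an established line from human T-cell acute lymphoblastic leukaemia. They are 10 of the 20037 protein-coding gene records on the chromosomes used, listed by name as a family, and no threshold on these lists set the membership. The family was picked with earlier results of these data known. For each gene, all GATA3, BHLHE40 and H3K27ac regions overlapping its RefSeq record on GRCh38 or the 50 kb on either side were taken, and this stretch is called its window. The windows held 37 of 29009 GATA3 regions, 68 of 26205 BHLHE40 regions and 122 of 113570 H3K27ac regions, each counted once.

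The assay was ChIP-seq: chromatin was fixed with formaldehyde, sheared and enriched with an antibody, and stretches of the genome rich in the recovered fragments form a list. All 3 lists come from Jurkat cells of the genotype Ctrl_LV, read here as a control lentivirus, stimulated with 50 ng/ml of the phorbol ester PMA and 500 ng/ml of the calcium ionophore ionomycin. The stimulation is given as 5 hours in the sample labels and as 2 hours in the treatment protocol. The series holds 38 samples in 19 groups of 2, and the other 16 groups (sgCtrl_P258 control-guide cells, sg70_P260 base-edited cells, BHLHE40OE_LV cells and H3K27me3 in Ctrl_LV cells) were not analysed here. The 2 samples of a group share 1 list, which gives no value for either of them. There is therefore no spread between samples and no test over samples, and the sequencing depth is unknown. All samples used are labelled stimulated, and a change on stimulation was not measured.

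AP-1 is a dimeric transcription factor of the basic leucine zipper class. FOS proteins dimerise with JUN proteins and cannot pair among themselves, JUN proteins can also pair with each other, and the smaller BATF proteins and ATF3 enter the same dimers. AP-1 dimers bind the TPA response element and, with some partners, the cyclic AMP response element. FOS, FOSB, JUN and JUNB are immediate-early genes, switched on by phorbol esters through protein kinase C and the MAP kinases, and in activated T cells AP-1 acts together with NFAT at cytokine genes. GATA3 is a zinc finger factor of T-cell development, BHLHE40 is a basic helix-loop-helix factor that binds E-boxes and is induced on activation, and H3K27ac is an acetylated histone tail found at active promoters and enhancers.

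The starts of 8 of the 10 genes could be placed with the promoter table used, and FOSL1 and BATF3 have no entry in it. The 250 bases before the start are printed for 6 members, because the results turn on what lies over these starts. They are read 5′ to 3′ on the strand of the gene from RefSeq, GRCh38.p14. Capitals mark TGACGTCA (the cyclic AMP response element), its core TGACG where it stands alone, the variant TGACATCA found in JUN, the GATA words AGATAA and TGATAA, and the TATA word TATAAA, on either strand.
FOS, chr14:75278578-75278827, plus strand: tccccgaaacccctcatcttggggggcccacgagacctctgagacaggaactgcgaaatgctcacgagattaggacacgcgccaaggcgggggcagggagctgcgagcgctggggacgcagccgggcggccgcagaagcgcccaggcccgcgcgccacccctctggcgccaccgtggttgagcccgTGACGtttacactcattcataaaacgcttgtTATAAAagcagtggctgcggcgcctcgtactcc
FOSB, chr19:45467746-45467995, plus strand: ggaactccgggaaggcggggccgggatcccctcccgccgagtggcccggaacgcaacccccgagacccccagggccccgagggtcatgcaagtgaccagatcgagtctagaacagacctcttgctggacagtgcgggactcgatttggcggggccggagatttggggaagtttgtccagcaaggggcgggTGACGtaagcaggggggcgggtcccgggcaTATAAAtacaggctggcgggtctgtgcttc
JUN, chr1:58784048-58784297, minus strand: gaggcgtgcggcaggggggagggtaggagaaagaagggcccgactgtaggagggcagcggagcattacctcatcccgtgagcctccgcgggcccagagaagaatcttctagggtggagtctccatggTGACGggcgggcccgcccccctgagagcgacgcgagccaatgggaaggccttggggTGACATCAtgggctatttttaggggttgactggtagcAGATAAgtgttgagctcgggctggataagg
JUNB, chr19:12791236-12791485, plus strand: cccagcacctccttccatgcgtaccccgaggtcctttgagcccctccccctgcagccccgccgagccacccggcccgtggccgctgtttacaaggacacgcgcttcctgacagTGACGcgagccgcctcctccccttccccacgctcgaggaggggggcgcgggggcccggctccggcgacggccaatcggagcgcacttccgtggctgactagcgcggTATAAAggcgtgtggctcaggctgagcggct
JUND, chr19:18281623-18281872, minus strand: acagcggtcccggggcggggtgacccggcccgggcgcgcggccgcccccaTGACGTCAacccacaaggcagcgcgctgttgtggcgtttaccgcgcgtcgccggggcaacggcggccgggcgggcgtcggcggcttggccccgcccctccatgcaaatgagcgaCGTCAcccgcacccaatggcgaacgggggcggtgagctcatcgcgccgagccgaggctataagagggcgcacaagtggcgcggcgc
BATF, chr14:75522219-75522468, plus strand: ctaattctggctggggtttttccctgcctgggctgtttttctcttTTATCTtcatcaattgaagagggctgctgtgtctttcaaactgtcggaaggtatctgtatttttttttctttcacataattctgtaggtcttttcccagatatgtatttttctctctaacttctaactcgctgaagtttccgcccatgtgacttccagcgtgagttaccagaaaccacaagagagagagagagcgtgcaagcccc

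The sequences at the listed starts fall into a GC-rich set and a BATF and ATF3 set. Over 300 bases (250 before and 50 after the start), GC content was 64.7% for FOS, 64.0% for FOSB, 62.0% for JUN, 68.7% for FOSL2, 71.0% for JUNB and 77.0% for JUND, against a median of 58.7% over 35097 promoter windows. It was 46.0% for BATF, and 48.0% and 46.3% for the starts of ATF3, of which 2 are listed. The core TGACG, searched on both strands and overlapping the full element, lay in the windows of 6 of the 8 genes (FOS, FOSB, FOSL2, JUN, JUNB and JUND) and in 24.5% of all windows. The full TGACGTCA was found in JUND, 200 bp before the start, and in 1.85% of all windows. TGACATCA lay 67 bp before the start of JUN and 123 bp before one start of ATF3, against 2.61% of all windows. TATAAA stood on the gene's own strand 20 to 40 bp before the start of FOS, FOSB and JUNB, a position it takes in 2.30% of all windows. Anywhere in the window it was found in 4 members, these and ATF3, and in 11.5% of all windows. The TPA response element (TGACTCA or TGAGTCA) was found in FOSL2, 4 bp after the start, and in 4.95% of all windows. No window of a member held the E-box CACGTG, which is in 7.25% of all windows. A GATA word was found in JUN, 30 bp before the start, and in BATF, 205 bp before it, against 16.3% of all windows. A match is a description of these letters. The words for the core, the JUN variant and the TATA box were chosen after the promoters had been read, as was the position set for TATAAA.

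BHLHE40 lay over the listed starts of 7 of the 8 placed genes (FOS, FOSB, FOSL2, JUN, JUNB, JUND and BATF). ATF3, judged by its listed starts only, was the exception. Over all 15842 protein-coding genes with a placed start, 45.8% had a BHLHE40 region there. GATA3 covered 5 of the 8 starts (FOS, FOSB, FOSL2, JUN and JUNB), against 19.2% of all starts, and H3K27ac covered 5 (FOS, FOSL2, JUN, JUNB and BATF), against 41.7%. All 3 lists covered the starts of FOS, FOSL2, JUN and JUNB, 4 of 8 against 16.4% of all starts. The windows held a median of 3 GATA3, 7 BHLHE40 and 12.5 H3K27ac regions, against 2, 2 and 8 over all protein-coding windows. With so few genes, these shares are given side by side with no test. The starts of FOSB and JUND had H3K27ac regions close on either side. Each of the 8 genes had an H3K27ac region within 1 kb of a start. At ATF3 this held only at the second of its listed starts, with a region of 2.87 ranking 84491 of 113570. No share over all placed starts was computed for this distance.

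The regions at the starts differed in strength within their lists. The signal value is the authors' enrichment per region, compared here only within a list. For BHLHE40 the values over the starts were 39.9 at JUNB, 33.7 at JUND, 28.7 at FOSL2, 18.4 at FOS, 13.3 at JUN, 10.0 at FOSB and 7.97 at BATF. JUNB and JUND, members of the JUN family, thus carried the strongest start regions, ranking 671 and 1023 of 26205. The BHLHE40 list has a median of 9.35, passed by 6 of the 7, and 5 of the 7 lay above 10.8, the median of all 7261 BHLHE40-covered starts. For GATA3 the values were 12.0 at FOS, 10.1 at JUN, 9.25 at FOSL2, 8.05 at JUNB and 4.08 at FOSB. Only that of FOS passed the GATA3 list median of 11.2. The median over all 3044 GATA3-covered starts was lower, 8.96, and 3 of the 5 passed it. At starts, then, 4 of the 5 GATA3 values lay below the middle of that list, with FOSB ranking 28677 of 29009, and BHLHE40 at JUNB, JUND and FOSL2 was in its top decile, which begins at 21.9.

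**Figure D1:**
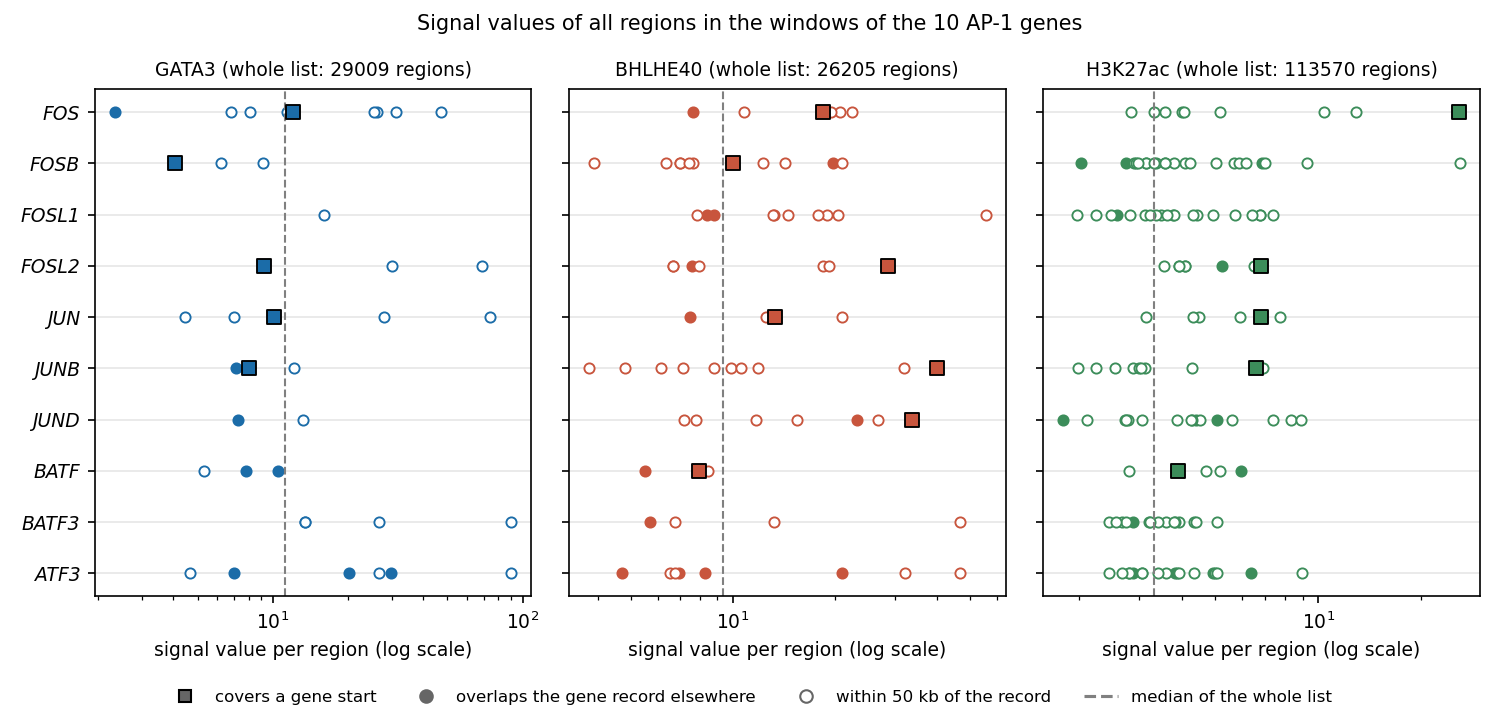
Signal value (log axis) of each region in the window of each AP-1 gene, in 3 panels for GATA3, BHLHE40 and H3K27ac. Squares cover a gene start, filled circles overlap the record elsewhere, open circles lie within 50 kb, and the dashed line is the median of the whole list. The GATA3 squares lie near or below the median with stronger open circles to their right, whereas the BHLHE40 squares of FOSL2, JUNB and JUND are the rightmost symbols of their rows. FOSL1 and BATF3 have no placed start and no square.

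At these starts the GATA3 summits lay downstream and 6 of 7 BHLHE40 summits upstream. The same order was seen over all covered protein-coding starts. There the median summit position was 0 bp for GATA3 and -75 bp for BHLHE40, where negative is upstream. The GATA3 summit lay 13 bp downstream of the start at JUNB, 14 bp at JUN, 25 bp at FOSB, 34 bp at FOSL2 and 45 bp at FOS. All 5 thus fell from 0 to 50 bp downstream, where 11.1% of the 3044 GATA3-covered starts have their summit, an interval chosen after the values were seen. The BHLHE40 summit lay upstream at 6 of 7 genes: 176 bp at FOS, 167 bp at JUN, 162 bp at FOSB, 140 bp at JUND, 103 bp at JUNB and 87 bp at FOSL2. At BATF it lay 12 bp downstream. An upstream BHLHE40 summit was found at 68.5% of the 7261 BHLHE40-covered starts. GATA3 and BHLHE40 summits over the same start were therefore 116 to 221 bp apart, with a median of 181 bp over the 5 genes. The H3K27ac summit lay upstream at JUN (396 bp), FOSL2 (337 bp) and FOS (156 bp), and 55 bp downstream at BATF.

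**Figure D2:**
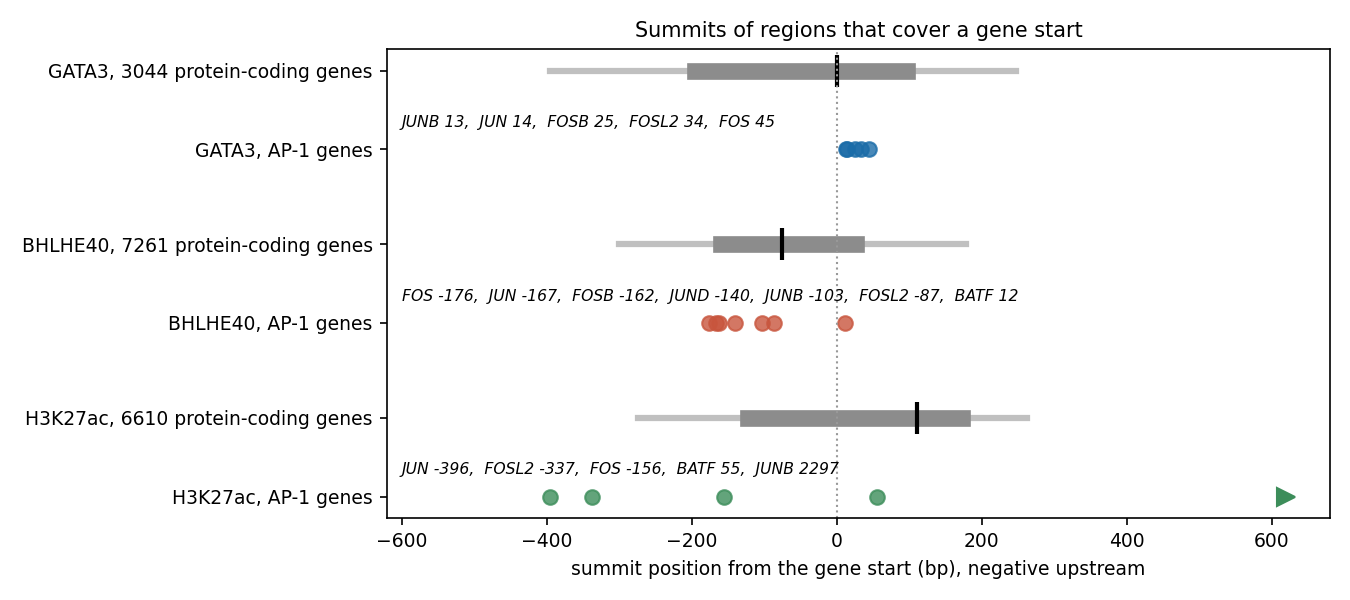
Summit position from the gene start in bp (negative is upstream) for regions that cover a start. Coloured points are the AP-1 genes, with their values written above them; the grey bars give the 10th to 90th (thin) and 25th to 75th (thick) percentiles over all covered protein-coding starts, with the median as a black tick. The 5 GATA3 points lie between 13 and 45 bp and 6 of 7 BHLHE40 points lie upstream; the arrow stands for the JUNB H3K27ac summit at 2297 bp.

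The width set for a wide BHLHE40 region was at least 5000 bp. None of the 10 records was overlapped by such a region, which 0.544% of all protein-coding records are. At the alternative width of at least 3000 bp there were 4 of 10 (JUNB, JUND, JUN and FOS), against 1.78% of all records. In the list, 360 of 26205 regions are that wide. At JUNB, an intronless gene like the other JUN genes, 1 region of 3444 bp (chr19:12791025-12794468) covered the whole record of 1830 bp and 1614 bp outside it, and its summit lies in the record of the neighbour HOOK2. At JUN a region of 4204 bp (chr1:58781784-58785987) covered 69.5% of the record and 1940 bp outside it on the side of the start. At JUND the wide region was not the one over the start. It was 3539 bp wide (chr19:18277322-18280860) with a signal value of 23.3, covered 60.5% of the record and went on for 2372 bp beyond the far end of the gene. FOS had a similar layout: a region of 3588 bp (chr14:75280896-75284483) with a signal value of 7.63 covered the last 39.2% of the record and 2253 bp beyond it. That FOS region ranked 17228 of 26205 by signal value, and its score of 806 is below the stricter cut of 830. The same FOS region overlapped no GATA3 and no H3K27ac region, whereas the JUND region overlapped 3 H3K27ac regions. At the lower-coordinate end of JUN, a further BHLHE40 region of 7.47 overlapped 16.1% of the record.

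In share of the record covered, BHLHE40 reached 100% at JUNB, 92.0% at JUND, 85.6% at JUN, 52.9% at FOS and 33.9% at FOSB. The other genes, with longer records, were between 4.02% (BATF) and 9.92% (FOSL1), and the median over all protein-coding records was 0.496%. Such a share depends on the length of the record, and no value for records of like length was computed. H3K27ac covered 100% of JUNB, 69.9% of JUND, 22.6% of JUN, 20.2% of FOSB and 5.50% of FOS. The JUNB H3K27ac region, chr19:12791458-12794169, was 2712 bp wide and ranked 4 of 113570 by width. It had a signal value of 6.56, and the summit lay 2297 bp downstream of the start, past the end of the record. FOS was the opposite in shape. Its H3K27ac region, chr14:75278458-75279014, was 557 bp wide and lay over the start with a signal value of 25.8, ranking 41 of 113570. The other H3K27ac values over starts were 6.82 at FOSL2, 6.81 at JUN and 3.90 at BATF. Among the 6610 acetylated starts the median signal value was 7.40, and FOS was the only one of the 5 acetylated members above it.

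**Figure D3:**
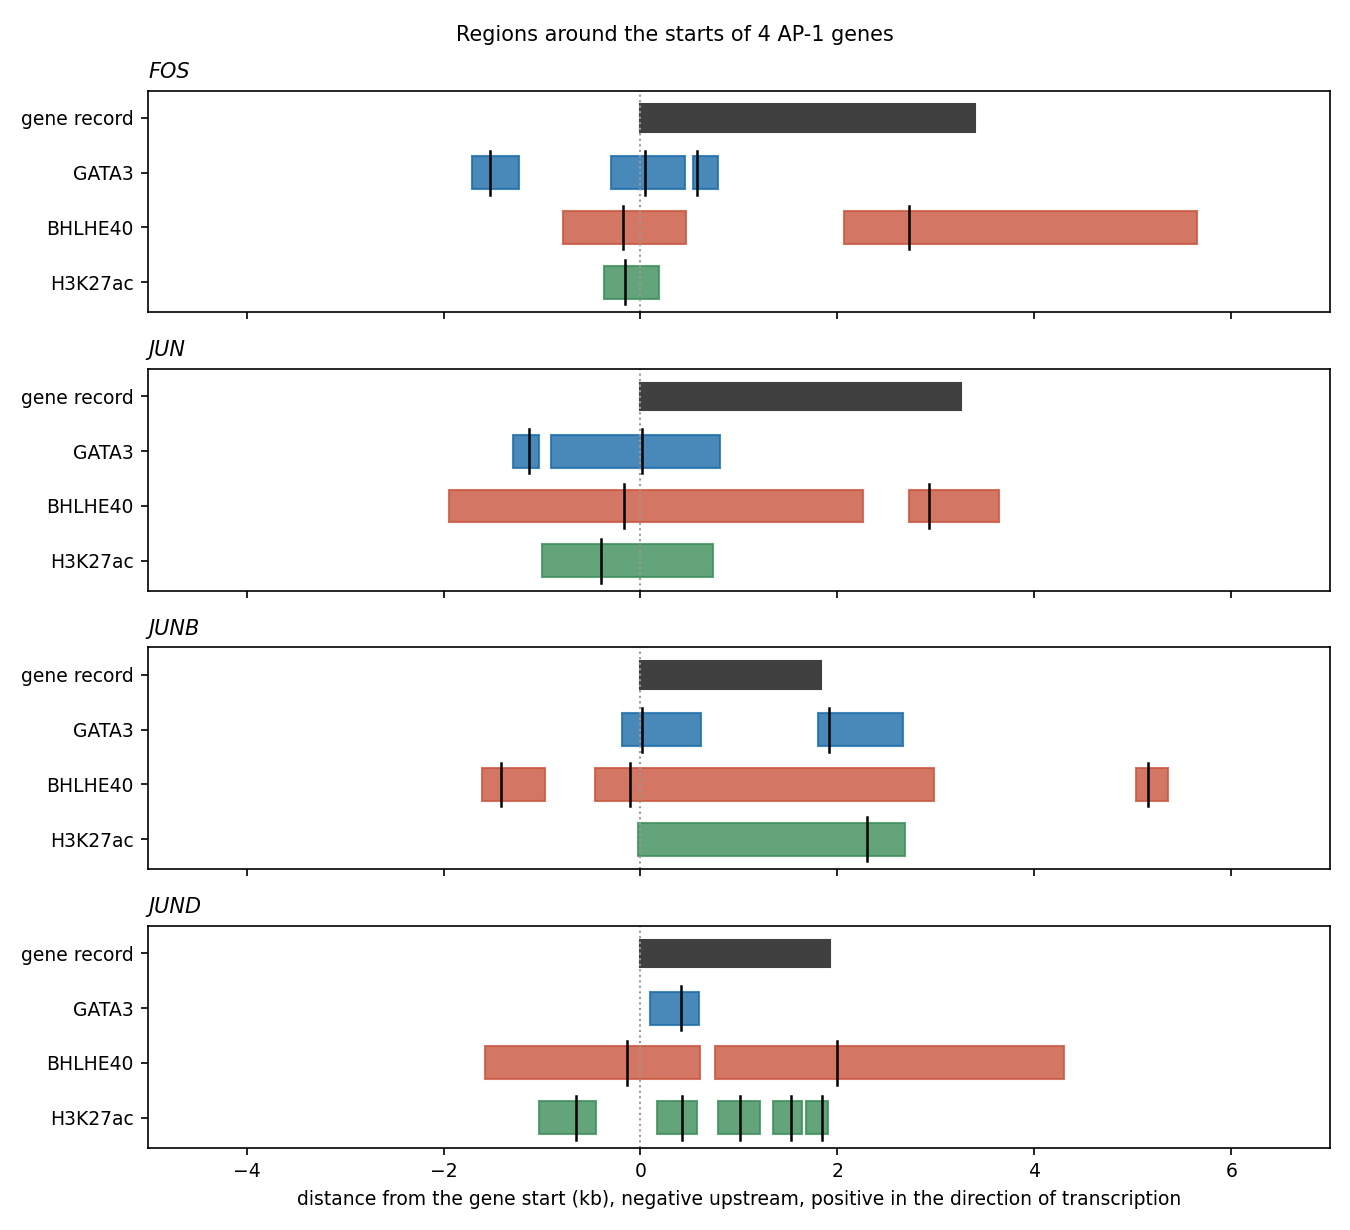
Regions around the starts of FOS, JUN, JUNB and JUND, drawn to scale in kb from the start in the direction of transcription; bars are regions, black ticks their summits, and the dark bar the gene record. BHLHE40 covers the whole JUNB record in 1 region, JUN from upstream into the record, and the ends of JUND and FOS in a region apart from that over the start.

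In the windows of the placed genes the strongest GATA3 region lay away from the start, as it does in most windows of all genes. The strongest GATA3 region of the window covered the start in none of the 8 placed genes, and in 8.10% of the 12264 placed genes with a GATA3 region in the window. For BHLHE40 it did so in 3 of 8 (FOSL2, JUNB and JUND), against 24.3% of 12853 genes. The strongest GATA3 region exceeded the one over the start 7.42-fold at FOSL2, 7.32-fold at JUN, 3.94-fold at FOS, 2.25-fold at FOSB and 1.52-fold at JUNB. These ratios have no all-gene value beside them. Of the 37 GATA3 regions, 4 were in the top decile of the list, 10.8% of them, near the 10% of the list by construction. These 4 lay at ATF3 and BATF3, JUN, FOSL2 and FOS.

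The place with the highest GATA3 value lay between ATF3, a stress-induced repressor and activator, and BATF3, known for its part in dendritic cell development. Their windows overlap, so 2 GATA3, 2 BHLHE40 and 7 H3K27ac regions belong to both. The GATA3 region chr1:212634807-212637485 had a signal value of 90.2, ranking 354 of 29009. The BHLHE40 region on it had 46.8, ranking 445 of 26205, with its summit 13 bp from that of GATA3, and an H3K27ac region of 2503 bp with 5.05, the highest of the BATF3 window, overlapped both. The GATA3 and BHLHE40 summits lay inside the record of the long noncoding RNA LINC02773, 16149 bp beyond the ATF3 record and 49491 bp from the BATF3 record, so the place is at the edge of the BATF3 window.

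At JUN the strongest GATA3 region was chr1:58754437-58756200, 29019 bp downstream of the start in the record of LOC112268263, with a signal value of 73.7 (rank 616). The strongest BHLHE40 region of the window was at the same place, at 21.0, with its summit 28 bp away, and H3K27ac was listed there over 1410 bp. The strongest H3K27ac region of the JUN window, 7.73, was in JUN-DT, 32553 bp upstream. At FOSL2, whose product FRA2 is a FOS protein without the strong activation domain of FOS, GATA3 had 68.7 (rank 724) 25963 bp upstream at chr2:28366446-28367306. The BHLHE40 summit was 20 bp from it, with a signal value of 18.5. A further shared place 72787 bp downstream of the FOSL2 start held 30.0 for GATA3 and 19.2 for BHLHE40, with summits 5 bp apart and no H3K27ac region. Inside FOSL2, BHLHE40 regions of 6.68 and 7.60 lay 14062 and 16618 bp after the start, and 3 H3K27ac regions of 3.91, 4.08 and 5.22 followed from 16786 to 17741 bp.

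The JUNB and JUND windows had weaker GATA3 regions. At JUNB the strongest had 12.2, 13669 bp upstream in HOOK2, and one of 7.15 overlapped the far end of the record. The strongest H3K27ac region of the JUNB window, 6.89, was in RNASEH2A, 15229 bp downstream, close to the 6.56 of the region over JUNB. At JUND the strongest GATA3 region had 13.2, 36771 bp upstream in LSM4, and one of 7.26 lay inside the record 415 bp after the start. The record of JUND held 4 H3K27ac regions, of 5.07, 4.39, 2.72 and 1.80 in the order from the start, and the highest H3K27ac value of the window was 8.93, 23361 bp upstream.

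FOS had the most GATA3 regions, 9, of which 6 lay upstream. Their signal values were 31.2 at 31284 bp, 47.3 at 29017 bp, 11.4 at 22590 bp, 26.2 at 18619 bp, 8.13 at 10011 bp and 25.3 at 1530 bp before the start. The FOS window holds no other protein-coding record. The GATA3 regions of the FOS record had 12.0 (over the start) and 2.33. BHLHE40 overlapped 3 of these 6 (at 31284, 29017 and 18619 bp), and the strongest BHLHE40 region of the window, with 22.4, was at 29083 bp. Downstream of FOS, at 15413 bp, a BHLHE40 region of signal value 19.5 met an H3K27ac region of 12.9 (rank 977) and no GATA3 region.

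FOSB had 11 BHLHE40 regions, the most of the 10 windows, and 3 GATA3 regions, and its strongest GATA3 value was 9.16, below the list median. Its second BHLHE40 region inside the record, 1273 bp downstream of the start, had 19.8, more than the 10.0 over the start. The strongest BHLHE40 region of the window, 21.0, lay 31571 bp beyond the record in LOC107985314. Inside the FOSB record, 4 H3K27ac regions had 2.74, 2.03, 3.14 and 6.85. The strongest H3K27ac region near FOSB, chr19:45478259-45479166, had 25.9 (rank 39 of 113570). It lay 3640 bp beyond the FOSB record and covered TRU-TCA1-1, a selenocysteine transfer RNA gene, so the strongest acetylation of this window was not over FOSB itself. FOSL1, which encodes FRA1, had 10 BHLHE40 regions and 1 GATA3 region, at 16.0, whose summit lay 27759 bp from the record. A BHLHE40 region of 8.82 covered the higher-coordinate end of the FOSL1 record, and a second of 8.36 lay inside it. The BHLHE40 region at that end overlapped 2 H3K27ac regions, one of 2.59 that reached into the record and one of 3.36 beyond it. The strongest BHLHE40 region of the window, with 55.7 (rank 271), was at chr11:65918273-65920331, in a window with 10 other protein-coding records. The strongest H3K27ac region, 7.39, overlapped it, with its summit in C11orf68.

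BATF, the partner of JUN proteins that works with IRF4 in T cells, had the lowest top BHLHE40 value of the 10 windows. It held 3 regions of each factor, and the highest values were 10.5 for GATA3 and 8.46 for BHLHE40, both below the median strongest value over all protein-coding windows (13.2 and 13.0). Inside the gene, 20306 bp from the start, GATA3 (10.5) and BHLHE40 (5.51) summits lay 44 bp apart under an H3K27ac region of 1269 bp with 5.95. A GATA3 region of 7.85 lay 21502 bp from the start. BATF3 had a BHLHE40 region of 5.68 inside its record and one of 13.2 beginning 2 bp beyond the higher-coordinate end, and no GATA3 region over the record. The only H3K27ac region over the BATF3 record had 2.88, and one of 3.83 beyond the higher-coordinate end overlapped the BHLHE40 region of 13.2. At ATF3 no region of any list covered either of the listed starts, and a start missing from the promoter table would not have been seen. An H3K27ac region of 2.87 had its summit 736 bp from the second start. The GATA3 and BHLHE40 regions nearest to a start shared a place 1892 bp after the first one, where BHLHE40 had 21.0, GATA3 had 6.97 and the summits were 6 bp apart, under an H3K27ac region of 3.87. A BHLHE40 region of 32.3 with an H3K27ac region of 8.96 and no GATA3 region lay 6417 bp before the first start. Farther inside ATF3, GATA3 had 29.7 at 30904 bp and 20.1 at 40105 bp after the first start, and BHLHE40 had 8.27 at 31019 bp, 6.93 at 43250 bp and 4.71 at 44164 bp. The H3K27ac regions of that stretch had 3.81, 6.36 and 4.93, all below the 8.96 upstream of the gene.

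Of the 37 GATA3 regions, 25 overlapped a BHLHE40 region (67.6%, 95% Wilson interval 51.5% to 80.4%, for counting only), against 48.7% of the whole GATA3 list. Of the 68 BHLHE40 regions, 23 overlapped GATA3 (33.8%, interval 23.7% to 45.7%), against 53.0% of that list. H3K27ac overlapped 22 of the 37 GATA3 regions (59.5%, interval 43.5% to 73.7%; whole list 49.1%) and 51 of the 68 BHLHE40 regions (75.0%, interval 63.6% to 83.8%; whole list 76.4%). Regions near 1 gene are not independent, and neighbours other than the members share these windows. The 25 overlapping pairs had a median summit distance of 80 bp. It was 181 bp for the 5 pairs whose GATA3 region covers a listed start of the member and 48 bp for the other 20, of which 10 were within 50 bp. The others include pairs at FOSL1 and BATF3, which have no placed start. They also include pairs at JUN (967 bp), JUNB (2019 bp) and JUND (555 bp) whose BHLHE40 region covers the start. Starts of neighbouring genes were not considered, and no distance over the whole lists was computed.

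**Figure D4:**
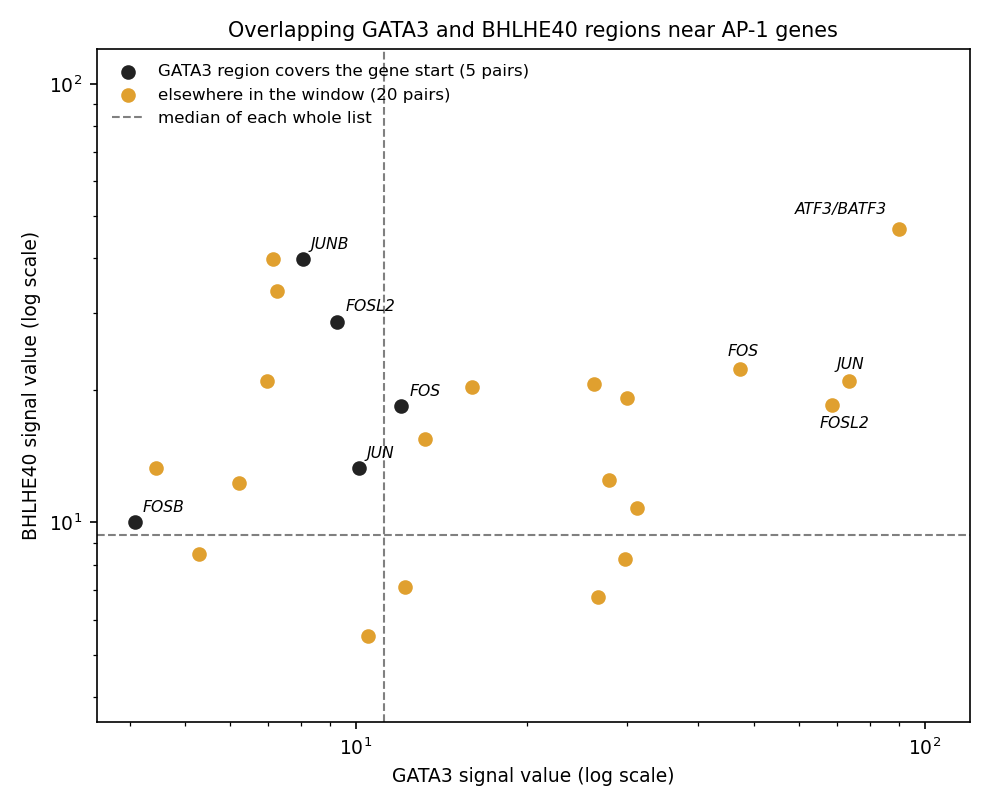
GATA3 against BHLHE40 signal value (both log axes) for the 25 pairs of overlapping regions, with dashed lines at the median of each list. The 5 pairs at listed starts of the members (black) lie left of or close to the GATA3 median and above the BHLHE40 median. The pairs with the highest GATA3 values, at ATF3 and BATF3, JUN, FOSL2 and FOS, lie away from the listed starts of the members.

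Related genes were described in the same way. Among 24 other basic leucine zipper genes, 20 had a placed start, of which BHLHE40 covered 16, H3K27ac 13 and GATA3 11. The shares over all placed starts were 45.8%, 41.7% and 19.2%. Frequent BHLHE40 and GATA3 regions over starts were thus not particular to the AP-1 members. ATF4, BACH2, NFE2L2 and DDIT3 had a BHLHE40 region of at least 3000 bp over the record, the widest being 7894 bp at BACH2. JDP2, the neighbour of BATF that dimerises with JUN, had no region of any list over its starts. Among 20 upstream regulators (MAP kinases, their kinases, SRF, ELK and MEF2 genes), 18 had a placed start, of which BHLHE40 covered 14, H3K27ac 11 and GATA3 5, and none had such a wide BHLHE40 region. By likeness of the window (the Euclidean distance over 6 percentile ranks, namely the number of regions and the highest signal value in each list, over 19976 genes), the nearest gene was ADSL for ATF3 at 4.08 percentile points, OCSTAMP for BATF at 7.86, MMP9 for FOS at 8.21 and RNF31 for FOSB at 9.66. It was farthest, at 20.4, for FOSL1 and CBX2.

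Marker genes of cell types were read in the same way. Of the 5 placed starts of T-cell markers, BHLHE40 covered 4, GATA3 3 and H3K27ac 3. The shares over all placed starts were 45.8%, 19.2% and 41.7%. No region of any list covered the start of CD2, and no H3K27ac region that of CD3D. No region of any list covered the 6 placed starts of B-cell, myeloid and erythroid markers. With so few starts, these counts cannot settle the cell type. A region over a start is not a measure of expression.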

How the data were processed

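Each list represents 2 ChIP-seq samples of control-lentivirus Jurkat cells. Per the submitters' processing notes, bcl2fastq 2.20, MACS2 and the build hg38 were used; the aligner for these samples, the MACS2 version and the use of inputs are not given in the sources used here. The deposited score of the factor lists ran from 540 to 1000, the range of an irreproducible discovery rate of 0.05 on that scale, and the name of the H3K27ac list calls it pooled. The signal value and the −log10 q are deposited by the authors per region, and what the signal is relative to is not stated. They were used within 1 list only. Depth is unknown.

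Regions were counted where they overlapped by at least 1 bp. Gene records are from RefSeq GRCh38.p14, and starts from the promoter table, which places 15842 of 20037 protein-coding genes. A gene with several starts counted as covered where any was, and starts that the table does not list were not examined. Exons and introns were not told apart. All members were named, with regions over the start or record, the strongest of each list, and BHLHE40 regions of at least 5000 bp. The members and lists were chosen with earlier results of these data known. Computation used pandas 2.3.3 and numpy 2.4.6 under Python 3.11.15, with scipy 1.17.1 for intervals and matplotlib 3.10.9 for figures. The overlap functions were tested on simulated data. Other windows, widths, overlap rules and stricter scores were tried. No test over samples was made.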

Additional observations from a re-analysis of the deposited data

How the results depend on the processing

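For 14 results 41 alternatives were computed, 40 of them planned and 1 added after seeing the data, and 30 kept the value within its interval or within 1.5 times. A window of 10 kb held 20 GATA3, 35 BHLHE40 and 44 H3K27ac regions, and a −log10 q of at least 5 left 76 H3K27ac regions. Keeping only factor regions with a score of at least 830 lowered the median share of the record covered to 2.15% for GATA3 (from 4.09%) and 11.8% for BHLHE40 (from 21.9%). Allowing 1 kb raised the members with H3K27ac at the start from 5 to 8, with no share over all genes computed at that distance. The count with a wide BHLHE40 region was 0 at 5000 bp, 4 at 3000 bp and 1 where a region of at least 3000 bp had to cover the whole record. Summits within 100 bp were found for 37.8% of the GATA3 and 20.6% of the BHLHE40 regions. In each case the definition itself is narrower or wider. No paired analysis was possible because the lists hold no value for a single sample, and for the same reason leaving out each replicate was not run. The unknown depth limits all counts of regions.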

Other observations

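In the GATA3 list, a region inside FOS (chr14:75279361-75279615, signal value 2.33, rank 28961 of 29009, −log10 q 1.58) and one upstream of JUN (chr1:58785078-58785343, signal value 4.45, −log10 q 7.99) carry the maximum score of 1000 although they are among the weakest regions of that list. Each lies beside the GATA3 region over the start of its gene.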
